A study of Drosophila melanogaster with 3 samples.

Results

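The gene jing carried 4 summits in the deposited list of Collier (Col) binding peaks, beside 555 summits that carried the 408 other gene labels. Its summits were selected by their gene label, and jing itself was chosen from the list with the fold enrichments of its summits in view, for having several summits of similar height, so these values are given as a description and were not tested. The list comes from chromatin immunoprecipitation followed by sequencing (ChIP-seq) of whole Drosophila melanogaster embryos at stages 13 to 14. The groups were chromatin precipitated with a mix of 3 monoclonal antibodies against Col (Col-IP), chromatin precipitated with an unrelated antibody, anti-HA (mock-IP), and an input DNA sample without precipitation. The embryos of the IPs carried a lacZ reporter under a col enhancer whose Col site had been replaced by a consensus one, and Col-bound DNA was released by competition with recombinant Col protein. DNA of 2 Col IPs was pooled into 1 library, so there were no replicates, no summit has an error, and a difference between any pair of summits could not be set against a spread. The list gives no read counts, and the depth behind each summit is unknown.

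Col, the product of the gene listed as kn, is the Drosophila member of the COE family of transcription factors, which bind as dimers to a partly palindromic DNA sequence. It acts in head patterning, in the choice of identity of certain body wall muscles and neurons, and in the lymph gland, the larval blood-forming organ. Jing is a zinc finger transcription factor of the C2H2 type, related to mammalian AEBP2, a cofactor of Polycomb repressive complex 2. It is known in the fly for the migration of border cells in the ovary, for the development of the midline of the nervous system and of the tracheae, and for patterning of appendages.

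In order along chromosome arm 2R (BDGP release 5, dm3), the jing summits lay at positions 2421712, 2426212, 2447622 and 2482582. The first had a fold enrichment of 5.2, the second of 6.06, the third of 4.94 and the fourth of 5.17. Fold enrichment is the linear ratio that the peak caller SISSRs gave to each peak. Heights followed no order along the gene, as the highest and the lowest summit were neighbours. The fourth summit is that around which the study cloned a fragment in front of a GFP reporter. It was neither the highest nor the lowest at the gene. The paper reports that mutating the Col site of this fragment lowered reporter expression in the lymph gland. This decrease was clear in only part of the embryos. Positions in the list are on a 10 bp grid. The authors' labels name a gene that overlaps the peak or whose transcription start is nearest. The main text of the paper gives 5 Col peaks at jing, while its supplementary list of bound genes gives 4, as here. That list names each jing peak as intragenic. The place of the summits relative to exons and introns was not analysed here, since no annotation of this build was used.

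The 4 summits spanned 60870 bp. The first pair was 4500 bp apart, followed by distances of 21410 bp and 34960 bp. Between neighbouring summits of the same label elsewhere in the list, the median was 4680 bp over 147 such distances. Of all 150 distances within a label, 72 were shorter than the smallest at jing and 19 were longer than the largest. The jing distances thus covered the middle and upper part of what was seen at genes with several summits.

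**Figure D1:**
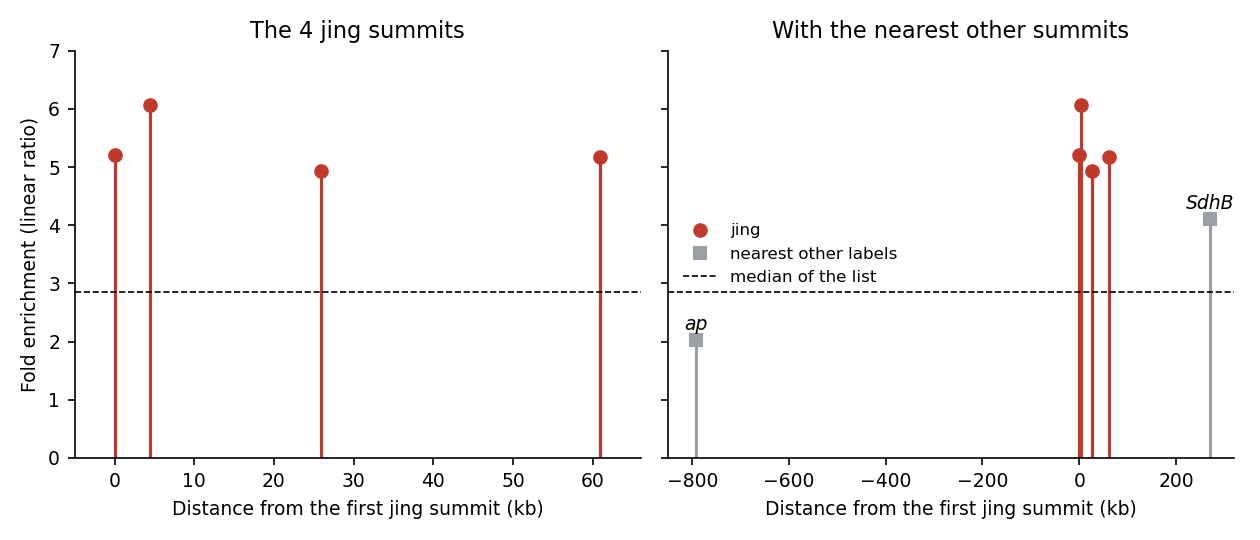
Fold enrichment (linear ratio, vertical axis) of the jing summits against distance in kb from the first of them, alone (left) and with the nearest summit of another label on each side (right); the dashed line is the median of the list. The 4 summits stood between 4.94 and 6.06, and the nearest other summits lay 792630 bp and 210570 bp away.

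No other label stood between the jing summits. On the side of lower coordinates the nearest summit belonged to ap, a LIM-homeodomain gene, at 792630 bp, with a fold enrichment of 2.02. This distance was the fifth largest of the 117 between neighbouring summits of the arm, whose median was 52980 bp. On the other side the nearest summit was that of SdhB, a subunit of succinate dehydrogenase, at 210570 bp and with 4.1. In the later RefSeq assembly (Release 6), used for names alone, the protein-coding genes next to jing are Pld and CG33919, and CG15233 lies inside it. None of these 3 genes was named by a summit label. Density was counted in windows of the same length: starting at each summit of the list in turn, 53 windows of 60870 bp (9.48% of them), including that of jing, held 4 or more summits, and the fullest held 7. In windows of 30000 bp, the fullest from a jing summit held 3, and 5.01% of all windows held 4 or more, while in windows of 100000 bp it held 4, and 15.2% of all windows held 4 or more.

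All 4 jing summits were among the higher ones of the list. Each passed a fold enrichment of at least 3, as did 44.9% of all summits, and each lay above the upper quartile of 3.74. Their ranks were 31 for the summit at 6.06, 58 for that at 5.2, 59 for that at 5.17 and 68 for that at 4.94. The median at jing was 5.185, against 2.85 over the whole list, a ratio of 1.82. On arm 2R alone, which held 118 summits with a median of 3.135, the jing summits took ranks 7, 12, 13 and 16. Since jing was chosen with these heights known, nothing follows from these shares about the gene.

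**Figure D2:**
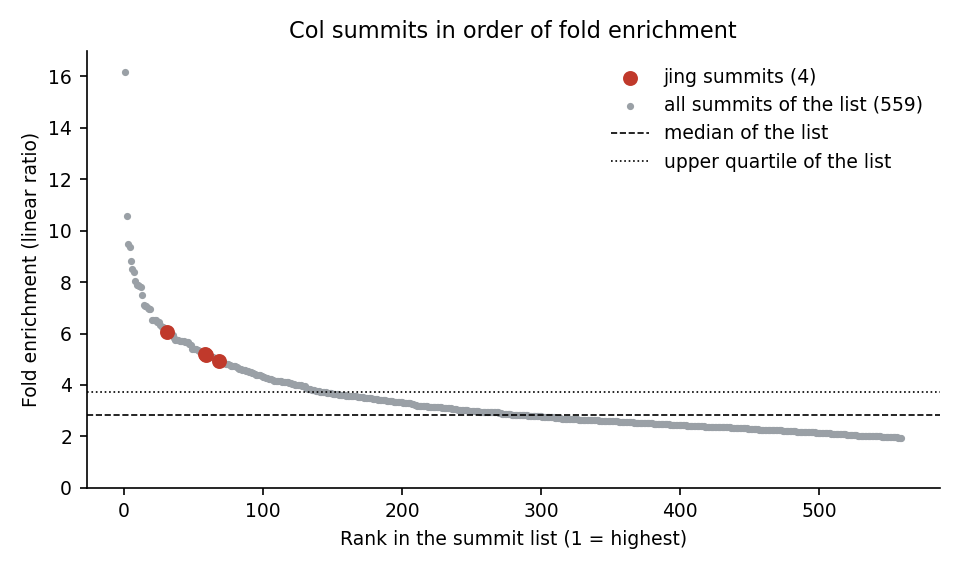
Fold enrichment (linear ratio, vertical axis) of all Col summits, the 4 of jing and 555 others, against their rank (horizontal axis), with jing in red and lines at the median and the upper quartile of the list. The jing summits lay at ranks 31 to 68, above the upper quartile of 3.74 and well under the highest summit of the list, at 16.17.

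Among themselves the jing summits differed little. The highest was 1.23 times the lowest, and their SD was 0.492 around a mean of 5.34, a coefficient of variation of 9.21%. In order of height, the step between the first and the second was 1.17 times, between the second and the third 1.01 times and between the third and the fourth 1.05 times. Without replicate libraries, no step in this order can be told from measurement error. In the list, Antp at 5.22 stood just above the second jing summit and VGlut at 6.02 just below the highest.

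Set beside the 12 other labels with 4 or more summits, jing had the smallest ratio of highest to lowest summit. Similar height was part of the choice of jing, so its place by evenness describes that choice and is no result. The next smallest ratio was that of hth, a homeodomain gene, with 1.48 over 5 summits, and the largest was that of Oaz, a zinc finger gene, with 8.00 over 6. Such a ratio tends to grow with the number of summits. Over the 4 highest summits of each label, jing had 1.23, with sick close behind at 1.24 and CG34380 at 1.38. The lowest jing summit, 4.94, was also above the lowest summit of each of the other 12 labels, the nearest being 3.43 at pum. Of the 61 summits of the other 12 labels, 8 reached 4.94, and their median was 2.87. With labels of 3 summits included, the jing ratio took the third place of 29, after CG42238 with 1.10 and Best4 with 1.22. The summits of CG42238 were lower, from 2.8 to 3.07, and those of Best4 ran from 3 to 3.66.

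**Figure D3:**
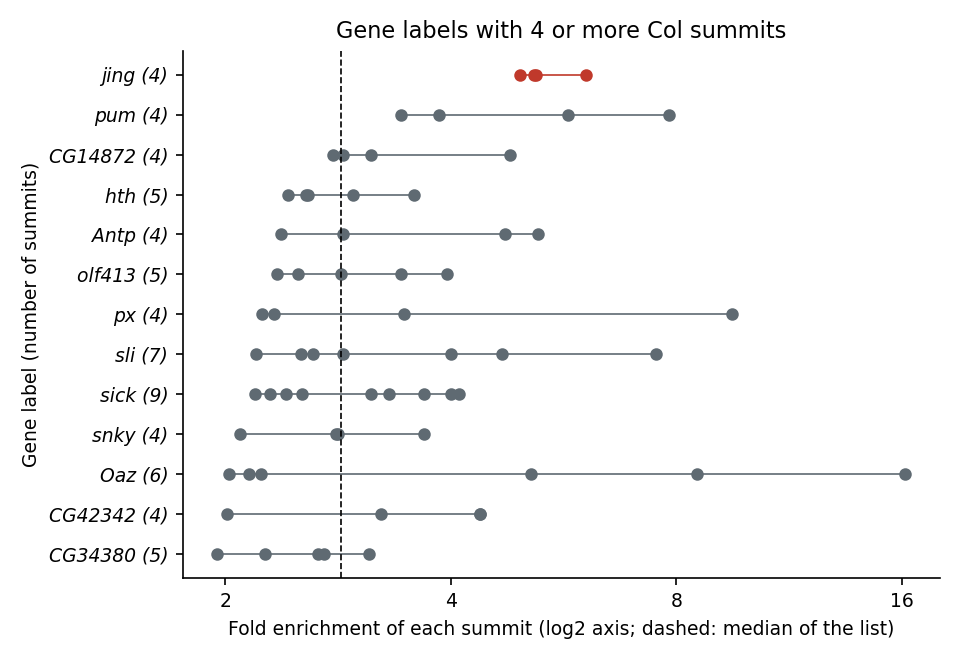
Fold enrichment of every summit (points, log2 axis) for the 13 gene labels with 4 or more Col summits, in order of their lowest summit, with jing at the top in red and the number of summits in brackets; the dashed line is the median of the list. The jing points run from 4.94 to 6.06, while those of Oaz run from 2.02 to 16.17.

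Summits of 4.94 or more numbered 68 in the list, 12.2% of all, and were spread over 58 labels. This threshold is the lowest jing summit, so by construction all 4 jing summits were among them. The next label, Oaz, held 3. Among the other labels with 2 or more summits (95 with jing), only ci had no summit below 4.94. The gene ci encodes a zinc finger transcription factor that mediates Hedgehog signalling, and its summits, at 6.33 and 5.7, were 70 bp apart on chromosome 4. At jing no pair was closer than 4500 bp.

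Likeness to jing was measured as the mean absolute difference of log2 fold enrichment over the 4 highest summits of a label, taken in order of height. By this measure pum was the most like it, with 0.37, followed by sli with 0.40 and sick with 0.50. At pum, which encodes a translational repressor, the 4 summits had fold enrichments of 7.83, 5.74, 3.86 and 3.43 and spanned 98050 bp. The top 4 of 7 summits at sli, which encodes the Slit guidance ligand, had 7.51, 4.68, 4 and 2.87. At sick, the 9 summits stayed under every jing summit, with a highest value of 4.1, but its 4 highest were almost as even, with a ratio of 1.24. The other labels with exactly 4 summits were Antp, a Hox gene, with summits from 2.37 to 5.22, px, a gene of wing vein patterning, from 2.24 to 9.48, CG42342 from 2.01 to 4.38, CG14872 from 2.78 to 4.8 and snky from 2.09 to 3.68. The ratio of highest to lowest was 1.23 at jing, against 1.73 or more in each of these 5 labels.

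The predicted Col sites of the jing summits, which the rule of choice did not use, were taken from the authors' motif search with MEME, which lists at most 1 site of 15 bases in the 200 bp around a summit. Each jing summit had a listed site within 100 bp, as did 97.0% of all summits. The site centre lay 16 bp from the first jing summit, 5 bp from the second, 32 bp from the third and 7 bp from the fourth. In each case it lay on the side of higher coordinates. Over the whole list the median distance was 18 bp and 49.3% of sites lay on that side. Summit positions are on a 10 bp grid, so the side is uncertain for offsets as small as 5 and 7 bp. A distance of 25 bp or less was found for 3 of the 4 jing summits and for 62.4% of all summits. On arm 2R the sites occupied 2421721 to 2421735, 2426210 to 2426224, 2447647 to 2447661 and 2482582 to 2482596. Their letters are not printed here.

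The match of these sites to the core motif CCCNNGGG, where N is any base, differed between the jing summits. The pattern was read on both strands and at any offset. At jing, only the site of the first summit held it, as did 43.0% of the 542 listed sites (95% Wilson interval 38.9 to 47.2%, which covers counting error only). At the fixed central positions of the motif, this site held all 6 specified bases, the sites of the second and the fourth summit held 5 and that of the third held 4. Sites with 4 bases or fewer made up 12.7% of those listed. Over all summits the median fold enrichment was 3.07 with 6 matching bases, 2.785 with 5 and 2.69 with 4. All 4 jing summits exceeded the upper quartile of their class, which was 4.305 with 6 bases, 3.56 with 5 and 3.51 with 4. Even the lowest jing summit lay above each of these quartiles. As jing was chosen with its heights known, this outcome was fixed and says nothing about the sites.

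**Figure D4:**
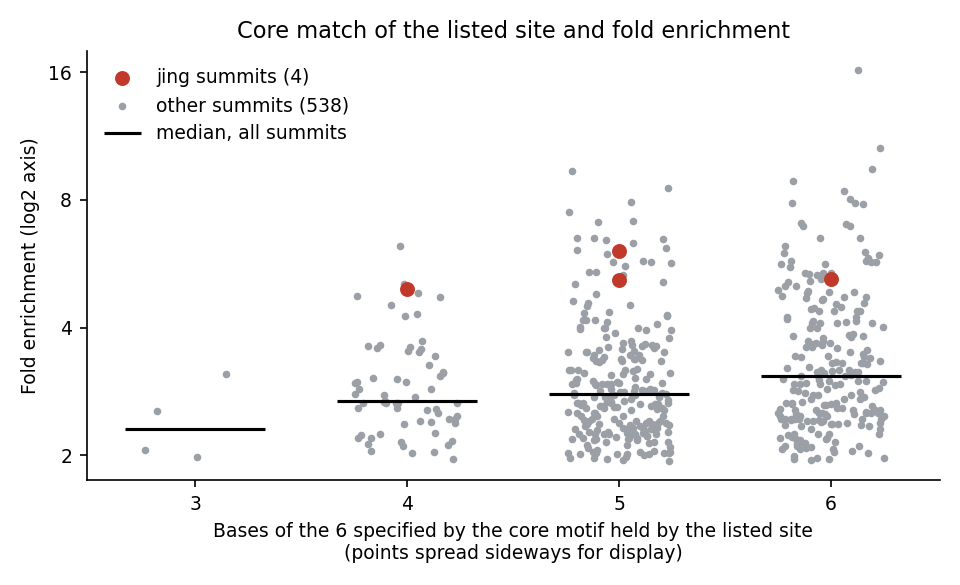
Fold enrichment (log2 axis) of each summit with a listed site against the number of the 6 specified bases of the core motif that the site holds at its central positions, with jing in red, other summits in grey and black bars at the medians. The jing summits fall in the classes of 4, 5 and 6 bases, at heights between 4.94 and 6.06.

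A spacer of 3 bases in place of 2 was searched as CCCNNNGGG, on both strands and at any offset. This search was added with the letters of the jing sites known. At jing 3 sites held it, those of the first, the second and the fourth summit, as did 104 of the 542 listed sites (19.2%). With 1 mismatch allowed, the count at jing was again 3 of 4, against 404 of all listed sites (74.5%), so that with this looser reading jing had about the share of the list. A site with a run of 4 C or 4 G can hold both patterns through overlapping letters. The sites of 2 jing summits, the second and the fourth (the cloned one), held CCCNNNGGG without CCCNNGGG. They were 2 of 13 such sites in the list (2.40% of the listed sites, Wilson interval 1.41 to 4.06%). By its form, such a site lacks only 1 specified base of CCCNNGGG. All 13 were among the 242 sites with 5 matching bases (44.6% of those listed). This count is therefore not separate from the core match given above. A match is a description of the letters and does not show that Col binds at this spacing.

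The 11 other summits with such a site belonged to 11 labels, so that jing was the only label with more than 1. As the pattern was chosen with the letters of the jing sites known, this is no result about jing. A label with a single summit could not hold more than 1 such site. The fold enrichments at jing were 6.06 and 5.17. As jing was chosen with these heights known, nothing follows from their place beside the others. The other summits ran from 2.15 to 6.09, with a median of 2.94. To show what the spacing looks like, the sites of the 3 highest of them on other chromosome arms are given as the authors list them (dm3 coordinates; the listed strand was not checked against a genome), with CCC and GGG in capitals. They are those of raw (chr2L:8746113-8746127, fold enrichment 6.09), Fur1, which encodes a furin-type protease (chr3R:21189731-21189745, 4.16), and Gad1, the glutamic acid decarboxylase gene (chr3L:4077166-4077180, 3.96). Relative to its summit, the site centre lay at -82 bp for raw, 26 bp for Fur1 and 1 bp for Gad1. The raw site was thus far from its summit, as the median distance in the list was 18 bp.
raw: atttcCCCagaGGGc
Fur1: ctgtcCCCtgtGGGt
Gad1: agctCCCacaGGGat

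The sites of the second and the fourth jing summits were alike beyond their core. As listed, they shared 13 of 15 letters. Over all 146611 pairs of listed sites the median was 8 shared letters, and 0.271% of the pairs shared 13 or more. The other 5 pairs of jing sites shared from 5 to 7 letters, at or below that median. Among 238 pairs of sites of the same label elsewhere in the list, the median was again 8, and 1 pair, at unc-5, shared 13. The sites were picked by one motif and therefore resemble one another, so these shares describe the listed sites only. Both sites lay close to their summits, whose fold enrichments were 6.06 and 5.17, while the sites of the remaining summits, at 5.2 and 4.94, differed from them at more than 7 of the 15 positions.

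Genes of midline and tracheal development, of border cell migration and of the Polycomb group, settings in which jing is known, and genes of the lymph gland, a setting of Col, were looked up by gene label. The lists were made up of well-studied regulatory genes and with results of these data known, so the counts describe the lists and were not tested. Of 18 genes of midline and tracheal development, 6 had a summit (33.3%), while labels named 2.92% of the 13962 protein-coding genes of the RefSeq table. The 6 were sim, the bHLH-PAS regulator of midline fate (fold enrichment 2.08), trh, its tracheal counterpart (2.37), vvl, a POU-domain gene (3.45), pnt, an ETS factor of the EGF receptor pathway (2.38), Tl, the Toll receptor (4), and sli with its 7 summits. The median of their 12 summits was 2.745, and 1 of them, the highest at sli, reached the level of the lowest jing summit.

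Of 18 genes of lymph gland development, 9 had a summit (50%, against 2.92% of all protein-coding genes). With current gene symbols only the count was 8, as Dl had no entry in the RefSeq table and was matched by its spelling. Like the other counts, this one describes a list made with results known. The 9 were kn, which is col itself, Antp, hth, the BMP receptor gene tkv (fold enrichment 4.24), the GATA factor gene pnr (3.35), tup, ush, zfh1 (4.02) and Dl, the gene of the Notch ligand Delta (6.94). Their 19 summits had a median of 3.26, and 2 of them, at Dl and Antp, reached 4.94. At kn the 3 summits had 3.55, 3.26 and 2.66, each below every jing summit. The embryos also carried a transgenic col enhancer, and whether its DNA adds to the values at kn was not tested.

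Of 20 Polycomb group genes, 2 had a summit (10%), and of 11 border cell genes, slbo and genes of the JAK/STAT pathway among them, 0. At the share of 2.92% over all protein-coding genes, lists of this size would hold few or no such genes, and these counts are no result about the lists. RYBP, which encodes a partner of Polycomb repressive complex 1, had a pair with fold enrichments of 6.46 and 3.3, and Psc, a core subunit of that complex, had 1 at 2.44. No label named the genes of Polycomb repressive complex 2 that were searched, E(z), esc, escl, Su(z)12, Caf1-55, Jarid2 and Pcl. The list ends at a fold enrichment of 1.94, and weaker binding at these genes may not be listed.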

How the data were processed

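Reads had been mapped by the authors with Bowtie 0.12.7 on release 5 of the genome (dm3), and the authors called peaks on the pooled Col-IP library with SISSRs, with lenient thresholds and one read per coordinate, which limits the effect of PCR duplicates. The deposited list holds, for each summit, a position, a gene label and the fold enrichment as a linear ratio; the background it is relative to is not given in the sources used here. The mock-IP and input libraries were not analysed here. Summits were counted by label and joined to the nearest listed MEME site by the distance to its centre, at most 100 bp. Of 414 gene names in the labels, 352 were current RefSeq symbols and 409 matched with unambiguous synonyms; the remaining names were compared by their spelling. No test was run, because the members and the gene lists were chosen with earlier results of these data known and there are no replicates. Genes were named by a rule: jing, the 3 most like labels, all labels with exactly 4 summits, Oaz, the flanking labels and list members with a summit; CG42238, Best4, ci, VGlut, raw, Fur1, Gad1, unc-5 and the genes neighbouring jing were named after their values were seen. The joins and patterns were tested on simulated data. Python 3.11.15, numpy 2.4.6, pandas 2.3.3 and matplotlib 3.10.9 were used.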

Additional observations from a re-analysis of the deposited data

How the results depend on the processing

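All 4 jing summits passed a minimum of 3 and were kept apart by merging within 200 bp, while 3 were left by a minimum of 5 or by merging within 5000 bp. The median at jing over that of the list was 1.65 on the same arm and 1.74 against labels with 2 or more summits. As a ratio of means it was 1.60. These ratios have no error, so the shifts could not be set against a spread. The place of jing by evenness was the first among labels with 4 or more summits, by ratio or coefficient of variation, and 3 of 29 when labels with 3 summits were included. As jing was chosen for summits of similar height, this place was set by the choice, and the measures use the same values. The counts at jing (sites, patterns, summits per window) and the counts of list members with a summit stayed within 1.5 times of those given. Over the whole list this did not hold: windows with 4 or more summits numbered 28 at 30000 bp and 85 at 100000 bp, against 53, sites with CCCNNNGGG numbered 404 with 1 mismatch, against 104, and summits with a site numbered 349 within 25 bp, against 542 within 100 bp. Counting CCCNNNGGG only without CCCNNGGG was an alternative chosen after seeing the data. No paired analysis was possible because the Col-IP, the mock-IP and the input are 1 library each. As no reads are listed, neither the precision of a fold enrichment nor the depth at which a summit is missed is known.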
